A study of Mus musculus with 6 samples.

Results

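The enzymes of the pentose phosphate pathway were examined in RNA-seq libraries of murine CD4 T cells cultured with an antisense oligonucleotide (ASO) against *Pgam*. The 9 genes were taken by name and by role, with earlier results of these data known. They are *G6pdx*, *Pgls* and *Pgd* of the oxidative branch, *Rpia*, *Rpe*, *Tkt* and *Taldo1* of the non-oxidative branch, and *Prps1* and *Prps2*, which use the ribose phosphate that the pathway makes. They make up 9 of the 56748 genes listed, and all 9 were among the 14936 genes with enough counts to be tested.

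The pentose phosphate pathway leaves glycolysis at glucose 6-phosphate. Its oxidative branch reduces NADP+ to NADPH and releases carbon dioxide, and its non-oxidative branch interconverts sugar phosphates and returns some of them to glycolysis. Proliferating T cells draw on the pathway for NADPH, which serves lipid synthesis and the reduction of glutathione and thioredoxin, and for the ribose of nucleotides.

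Both groups were naive CD4 T cells of wild-type (WT) C57BL/6 mice, male and female mice of 6 to 10 weeks being used in the study, taken from spleen and lymph nodes (the labels name splenocytes). Both were held for 72 hr, which the labels give as 3 days, on plate-bound anti-CD3 at 2 μg/ml with anti-CD28 at 2 μg/ml, IL-2 at 10 ng/ml, human TGF-β at 1 ng/ml, and anti-IFNγ and anti-IL-4 each at 5 μg/ml, which are conditions that polarize naive cells toward regulatory T cells (Tregs). The 3 control libraries had a scrambled ASO and the other 3 a *Pgam* ASO, at 10 μM in each case, and polyA RNA was taken without sorting the cells. ASOs are short synthetic strands that pair with a matching RNA and can lower it, and PGAM is the glycolytic enzyme that turns 3-phosphoglycerate into 2-phosphoglycerate. The sex of the mice behind each library is not given, nor is the animal, although the study speaks of biological replicates, so the p-values measure the spread between these libraries. Estimated counts summed to 17588755, 18032805 and 16231127 in scrambled ASO replicates 1, 2 and 3, and to 16589933, 15860476 and 16803881 in *Pgam* ASO replicates 1, 2 and 3. Values are given as CPM, counts scaled to a common library total (here with TMM factors), always in the order of replicates 1, 2 and 3. The test was the quasi-likelihood test of edgeR, and each p was adjusted by the Benjamini-Hochberg method over all 14936 genes, with a threshold of 0.05.

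The targeted genes were looked at first. *Pgam1* stood at 598, 477 and 706 CPM in the scrambled libraries and at 657, 660 and 706 CPM in the *Pgam* libraries, so the groups overlapped (log2 fold change 0.18, SE 0.13, edgeR adjusted p = 0.331). The *Pgam1* difference was 0.05 without scrambled replicate 2 (edgeR adjusted p = 0.793) and 0.33 without scrambled replicate 3 (edgeR adjusted p = 0.0528), the ends of its range over the fits with a library left out. *Pgam2*, the muscle form, was scarce, at 5.22, 6.74 and 2.85 CPM against 2.98, 2.69 and 2.60 CPM. The highest *Pgam* ASO library lay above scrambled replicate 3, and the *Pgam2* difference of -0.84 (SE 0.31) had an edgeR adjusted p of 0.0854. Without scrambled replicate 3, that difference was -1.11 with an edgeR adjusted p of 0.0144. With no filter on low counts it was -0.83 with an edgeR adjusted p of 0.0292. Without scrambled replicate 2 it was -0.56 with an edgeR adjusted p of 0.286, and limma-voom and a replicate block in edgeR gave -0.77 each with adjusted p-values of 0.130 and 0.129. Because neither transcript passed the test on all 6 libraries, the groups are called here by their labels, and every direction below is that of the libraries labelled *Pgam* ASO against the libraries labelled scrambled ASO.

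Most enzymes of the pathway were higher in the libraries labelled *Pgam* ASO. Of these, 6 (*G6pdx*, *Pgd*, *Rpia*, *Tkt*, *Taldo1* and *Prps1*) rose, by 1.26-fold to 1.42-fold, while *Pgls*, *Rpe* and *Prps2* did not pass the test. Among all tested genes, edgeR called 17.2% in either direction, 8.03% as higher and 9.15% as lower, beside 6 of 9 enzymes as higher and 0 of 9 as lower. For that count of 0, edgeR at an unadjusted p under 0.05 also gave 0 enzymes lower, as did DESeq2 and limma-voom, and all 3 tools gave 6 higher. At an unadjusted p under 0.05, 7 enzymes were higher with edgeR. The median log2 fold change was 0.38 over the 9 enzymes and -0.0061 over all tested genes. The 3 libraries of one label lay apart from the 3 of the other in 39.5% of tested genes, with 19.7% higher and 19.8% lower in the *Pgam* libraries, and in 8 of 9 enzymes, each of them higher. These are bulk RNA values of unsorted cells, in which fewer cells of a type and less RNA per cell cannot be told apart.

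**Figure D1:**
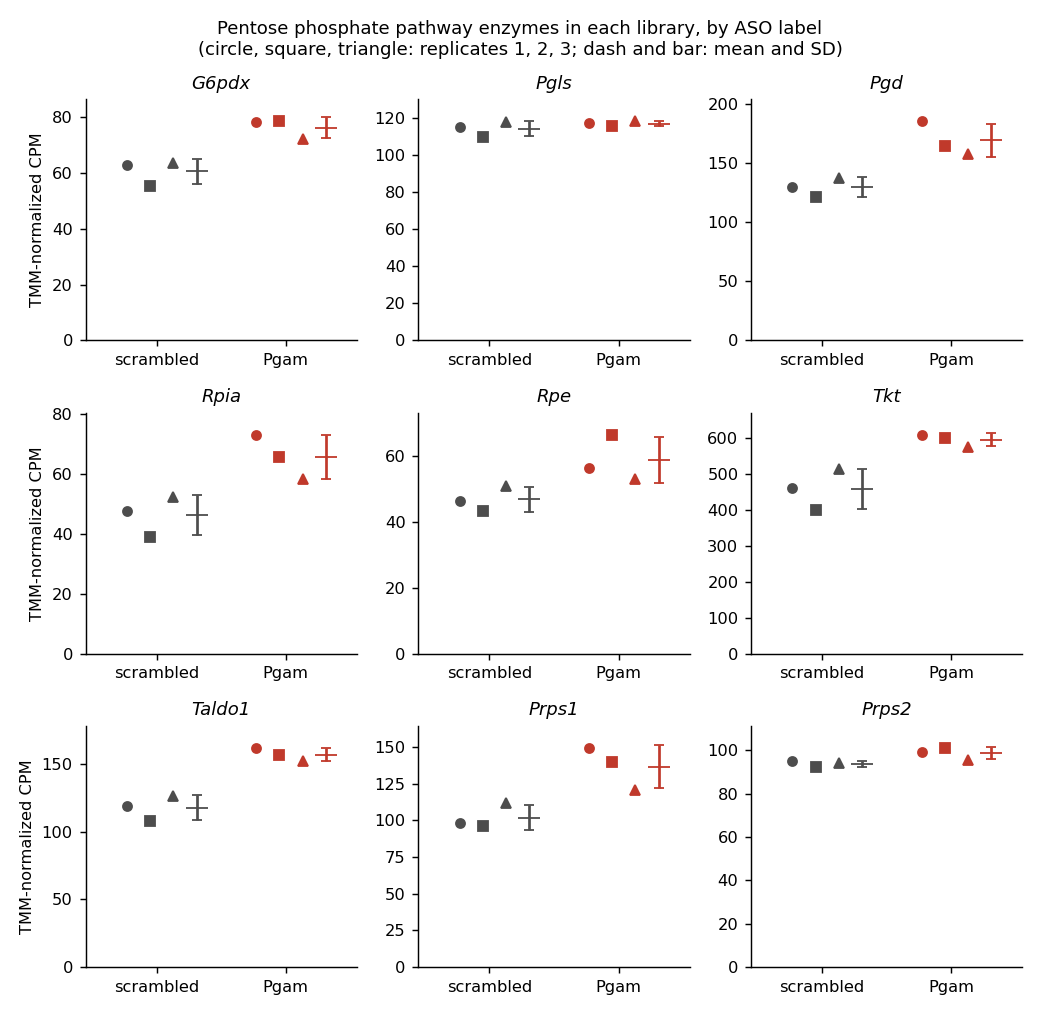
Expression of each enzyme in TMM-normalized CPM (vertical axes, from 0) in the 3 libraries labelled scrambled ASO (grey) and the 3 labelled *Pgam* ASO (red), with circle, square and triangle for replicates 1, 2 and 3 and the mean ± SD beside them. The groups are apart in every panel but that of *Pgls*, where the scrambled libraries ran from 110 to 118 CPM and the *Pgam* libraries from 115 to 118 CPM.

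The size of the count depended on single libraries. With 1 library left out, edgeR called 0 enzymes without scrambled replicate 1, 2 without scrambled replicate 2 (*Pgd* and *Taldo1*), 7 without scrambled replicate 3, 1 without *Pgam* replicate 1 (*Taldo1*), 0 without *Pgam* replicate 2 and 7 without *Pgam* replicate 3. At an unadjusted p under 0.05 edgeR gave 7 enzymes, all higher, in each of these fits except the one without *Pgam* replicate 2, which gave 6, while DESeq2 and limma-voom on all 6 libraries each called 6. Calls over all genes moved in the same fits, from 2565 genes with every library to 620, 1256, 3484, 871, 391 and 3319, in the same order. With a replicate block, edgeR called 1 enzyme, *Taldo1* (edgeR adjusted p = 0.0451), and the other 5 calls were lost, at edgeR adjusted p-values of 0.0541 to 0.0812. A threshold of 0.01 in place of 0.05 left 0 enzymes called by edgeR. The fold changes moved less than the calls. No enzyme changed its direction in any fit with a library left out.

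**Figure D2:**
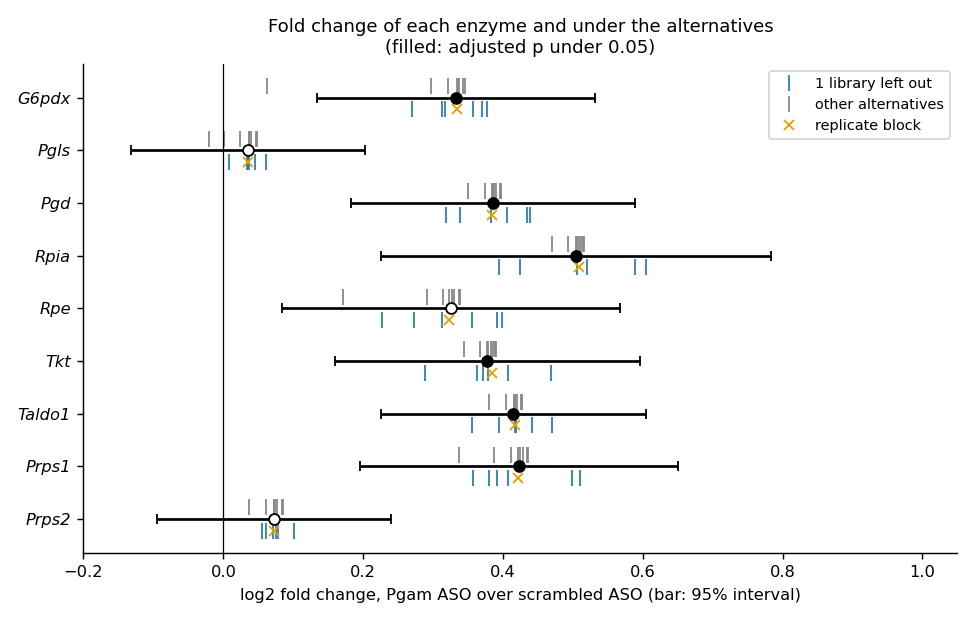
Log2 fold change of each enzyme, *Pgam* ASO over scrambled ASO, with its 95% interval (circles, filled where the edgeR adjusted p was under 0.05) and its value with 1 library left out (blue ticks), with a replicate block (orange crosses) and under the other alternatives (grey ticks). Values of 8 enzymes stay above 0 throughout, and *Pgls* reaches -0.020 once its counts are summed with those of *Fam129c*.

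The oxidative branch opens with *G6pdx* (ENSMUSG00000031400), which encodes glucose 6-phosphate dehydrogenase, the committed and rate-limiting step and a source of NADPH. The gene lies on the minus strand of chromosome X from 74409483 to 74429194 (GENCODE M21 annotation of GRCm38). It stood at 62.9, 55.2 and 63.3 CPM in the scrambled libraries and at 78.1, 78.3 and 72.01 CPM in the *Pgam* libraries. Every *Pgam* library lay above every scrambled library, and scrambled replicate 2 was the lowest of the 6. The mean of *G6pdx* was 60.5 ± 4.57 and 76.2 ± 3.60 CPM in the groups (± SD, n = 3 each), and it rose (log2 fold change 0.33, SE 0.090, edgeR adjusted p = 0.0331). The call of *G6pdx* was lost without scrambled replicate 1, scrambled replicate 2, *Pgam* replicate 1 or *Pgam* replicate 2, at edgeR adjusted p-values of 0.0935, 0.0863, 0.101 and 0.137, while the log2 fold change stayed between 0.27 and 0.38 over the 6 fits with a library left out.

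*Pgls* (ENSMUSG00000031807; chromosome 8, 71592176 to 71601092, plus strand) encodes 6-phosphogluconolactonase, which opens the lactone ring that glucose 6-phosphate dehydrogenase leaves. It was nearly flat across the 6 libraries, at 115, 110 and 118 CPM in the scrambled group and 117, 115 and 118 CPM in the *Pgam* group. The groups overlapped and the difference was smaller than the SD of the scrambled replicates (log2 fold change 0.04, 95% interval -0.13 to 0.20, edgeR adjusted p = 0.770).

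*Pgd* (ENSMUSG00000028961; chromosome 4, 149149991 to 149166771, minus strand) encodes 6-phosphogluconate dehydrogenase, which makes ribulose 5-phosphate and the second NADPH of the branch. Its level was 130, 121 and 138 CPM in the scrambled libraries and 185, 164 and 158 CPM in the *Pgam* libraries. Again no library of one label reached into the range of the other, and *Pgam* replicate 1 was the highest. Mean levels of *Pgd* were 129 ± 8.37 and 169 ± 14.2 CPM (± SD, n = 3 each), and it rose (log2 fold change 0.39, SE 0.092, edgeR adjusted p = 0.0226). The call of *Pgd* was lost without scrambled replicate 1, *Pgam* replicate 1 or *Pgam* replicate 2, at edgeR adjusted p-values of 0.0891, 0.0802 and 0.0912. Within this branch the enzymes on either side of *Pgls* were thus called and *Pgls* was not, a contrast between genes that was not tested.

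The non-oxidative branch starts from ribulose 5-phosphate, which *Rpia* and *Rpe* each convert into another pentose phosphate. *Rpia* (ENSMUSG00000053604; chromosome 6, 70765720 to 70792232, minus strand) encodes ribose 5-phosphate isomerase and had the largest log2 fold change of the 9 enzymes. It was counted at 47.6, 39.1 and 52.4 CPM in the scrambled libraries and at 73.2, 65.7 and 58.4 CPM in the *Pgam* libraries. Scrambled replicate 2 and *Pgam* replicate 1 lay at the ends of the range, and the groups did not overlap. *Rpia* averaged 46.4 ± 6.77 and 65.8 ± 7.38 CPM in the groups (± SD, n = 3 each) and rose (log2 fold change 0.50, SE 0.13, edgeR adjusted p = 0.0257). The call of *Rpia* was lost without scrambled replicate 1, scrambled replicate 2, *Pgam* replicate 1 or *Pgam* replicate 2, at edgeR adjusted p-values of 0.0817, 0.0539, 0.0910 and 0.108.

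*Rpe* (ENSMUSG00000026005; chromosome 1, 66700831 to 66719805, plus strand) encodes the epimerase that yields xylulose 5-phosphate. Its level was 46.3, 43.4 and 50.8 CPM in the scrambled group and 56.5, 66.5 and 53.2 CPM in the *Pgam* group. The gap between scrambled replicate 3 and *Pgam* replicate 3 was narrow, and *Pgam* replicate 2 stood highest. On all 6 libraries the log2 fold change of 0.33 (SE 0.11) missed the threshold (edgeR adjusted p = 0.0630). It passed without scrambled replicate 3 (0.39, edgeR adjusted p = 0.0411), without *Pgam* replicate 3 (0.40, edgeR adjusted p = 0.0384) and with no filter on low counts (0.34, edgeR adjusted p = 0.0258).

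*Tkt* (ENSMUSG00000021957; chromosome 14, 30548359 to 30574720, plus strand) encodes transketolase, which moves 2-carbon units between sugar phosphates with thiamine diphosphate as its cofactor. It stood at 461, 400 and 513 CPM in the scrambled libraries and at 609, 601 and 575 CPM in the *Pgam* libraries. The scrambled libraries were spread more widely than the *Pgam* libraries, at 458 ± 56.5 CPM (SD, n = 3) against 595 ± 17.7 CPM (SD, n = 3), and the groups stayed apart. *Tkt* rose by a log2 fold change of 0.38 (SE 0.098, edgeR adjusted p = 0.0295). The call of *Tkt* was lost without scrambled replicate 1, scrambled replicate 2, *Pgam* replicate 1 or *Pgam* replicate 2, at edgeR adjusted p-values of 0.101, 0.0538, 0.0929 and 0.122.

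*Taldo1* (ENSMUSG00000025503; chromosome 7, 141392199 to 141402968, plus strand) encodes transaldolase, which moves 3-carbon units and works together with transketolase. Its values were 119, 108 and 126 CPM in the scrambled libraries and 162, 157 and 152 CPM in the *Pgam* libraries. The *Pgam* libraries lay close together and well above scrambled replicate 3, the highest of its group. The mean of *Taldo1* was 118 ± 9.16 and 157 ± 4.79 CPM in the groups (± SD, n = 3 each), and it rose (log2 fold change 0.42, SE 0.085, edgeR adjusted p = 0.0138), the lowest adjusted p of the 9 enzymes. The call of *Taldo1* was lost without scrambled replicate 1 or *Pgam* replicate 2, at edgeR adjusted p-values of 0.0647 and 0.0776, and it was the one enzyme called without *Pgam* replicate 1.

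Ribose 5-phosphate is turned into phosphoribosyl pyrophosphate (PRPP), the ribose donor of purine, pyrimidine and NAD synthesis, by PRPP synthetases. *Prps1* (ENSMUSG00000031432; chromosome X, 140456613 to 140476140, plus strand) and *Prps2* (ENSMUSG00000025742; chromosome X, 167346322 to 167382749, minus strand) encode the synthetases found in most tissues. Both have a coding sequence of 954 bases, which match at 80.0% of positions, differ at 191 and share 0 stretches of 31 bases, so that reads of the coding sequence can be told apart over such a stretch. *Prps1l3*, a gene on chromosome 12, differs from *Prps1* at 30 of 954 coding bases (96.9% matching), with an identical run of up to 164 bases. The first 60 coding bases of the 3 genes are shown because they let the reader see which copies are close, with capitals for bases that differ from *Prps1*.
Prps1: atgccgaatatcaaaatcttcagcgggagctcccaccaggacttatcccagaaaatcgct
Prps1l3: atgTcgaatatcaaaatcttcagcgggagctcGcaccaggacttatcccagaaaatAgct
Prps2: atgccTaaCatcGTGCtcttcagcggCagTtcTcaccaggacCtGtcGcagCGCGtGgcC
In this window *Prps1l3* differs from *Prps1* at 3 bases and *Prps2* at 18.

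*Prps1* stood at 97.9, 95.8 and 112 CPM in the scrambled libraries and at 149, 140 and 121 CPM in the *Pgam* libraries. The groups were apart, and *Pgam* replicate 3 was the closest to the scrambled range. Mean levels of *Prps1* were 102 ± 8.81 and 137 ± 14.6 CPM (± SD, n = 3 each), and it rose (log2 fold change 0.42, SE 0.10, edgeR adjusted p = 0.0239). The call of *Prps1* was lost without scrambled replicate 1, scrambled replicate 2, *Pgam* replicate 1 or *Pgam* replicate 2, at edgeR adjusted p-values of 0.0999, 0.0526, 0.0840 and 0.111. *Prps2* was at 95.2, 92.5 and 94.1 CPM against 99.5, 101 and 95.7 CPM. The *Pgam* libraries were higher here too, but by little, and the difference did not pass the test (log2 fold change 0.07, 95% interval -0.09 to 0.24, edgeR adjusted p = 0.527). *Prps1* made up 50.7%, 50.9% and 54.4% of the summed CPM of *Prps1* and *Prps2* in the scrambled libraries. Its share was 60.04%, 58.0% and 55.8% in the *Pgam* libraries, above each scrambled library, and no test was run on this share.

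Summed by role, the enzymes of the non-oxidative branch came to 674, 591 and 742 CPM in the scrambled libraries and 901, 890 and 839 CPM in the *Pgam* libraries, a ratio of the group means of 1.31. The oxidative branch came to 307, 286 and 319 CPM against 381, 358 and 348 CPM, a ratio of 1.19. For *Prps1* and *Prps2* together the sums were 193, 188 and 206 CPM against 249, 241 and 216 CPM, a ratio of 1.20. No library of one label fell within the range of the other in any of these sums, which are descriptions without a test. Dividing the oxidative by the non-oxidative sum gave 0.456, 0.484 and 0.429 in the scrambled libraries and 0.422, 0.402 and 0.414 in the *Pgam* libraries. The *Pgam* values all lay below the scrambled values, though *Pgam* replicate 1 and scrambled replicate 3 were nearly equal.

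Levels of different enzymes were compared per kilobase of transcript, using the median length of the protein-coding transcripts of each gene. In the scrambled libraries *Tkt* was the most abundant, at 189 ± 23.3 CPM per kb (SD, n = 3), followed by *Pgls* at 128 ± 4.46 CPM per kb (SD, n = 3) and *Taldo1* at 90.9 ± 7.07 CPM per kb (SD, n = 3). *Pgd* at 58.3 ± 3.77 and *Prps1* at 51.9 ± 4.48 CPM per kb (SD, n = 3 each) overlapped. *G6pdx*, the committed step, was lower than these, at 30.99 ± 2.34 CPM per kb (SD, n = 3). *Prps2* and *Rpia* followed at 25.4 CPM per kb each, with overlapping libraries, and *Rpe* was the lowest at 17.3 ± 1.39 CPM per kb (SD, n = 3). In the *Pgam* libraries *Rpia* stood at 36.0 ± 4.03 CPM per kb, above *Prps2* at 26.7 ± 0.763 CPM per kb (SD, n = 3 each), and the rest of the order was the same. The order below *Tkt* depended on the length used. With the longest transcript of each gene, *Pgls* was at 42.4 CPM per kb in the scrambled libraries, behind *Taldo1* and *Prps1*, *G6pdx* at 22.8 CPM per kb was below *Prps2* at 25.4 CPM per kb, and *Rpia* at 12.7 CPM per kb was the lowest, below *Rpe* at 17.2 CPM per kb.

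**Figure D3:**
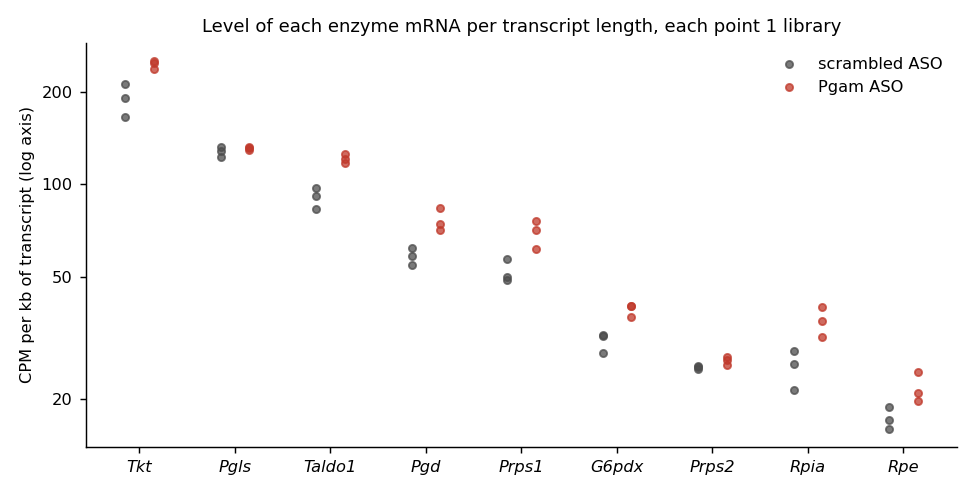
Level of each enzyme mRNA in CPM per kilobase of transcript (log axis) in every library, grey for scrambled ASO and red for *Pgam* ASO, with the enzymes ordered by their mean in the scrambled libraries. Transketolase is at the top, with a scrambled mean of 189 CPM per kb, and *Rpe* at the bottom, with 17.3 CPM per kb, for the median length of transcript shown here.

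Some of these genes share sequence with other genes, between which Kallisto, the tool behind the estimated counts, has to divide reads. Of the 31-base stretches in the *G6pdx* transcripts, 23.6% occur in other genes, mainly *G6pd2*, an autosomal copy listed at 0 in all 6 libraries, and *Ikbkg*, a regulator of NF-κB signaling whose gene overlaps *G6pdx* on the opposite strand. The counting is not stated to use strand, so reads from the overlap cannot be told apart. *Ikbkg* stood at 68.6, 68.4 and 67.0 CPM in the scrambled libraries and at 53.6, 62.4 and 58.1 CPM in the *Pgam* libraries. It was lower in each *Pgam* library, opposite to *G6pdx*, without passing the test (log2 fold change -0.23, SE 0.087, edgeR adjusted p = 0.0920). With the counts of *G6pdx*, *G6pd2* and *Ikbkg* summed, the log2 fold change was 0.06 (SE 0.078) and the call was lost (edgeR adjusted p = 0.6003). In that sum, *Ikbkg* was about as abundant as *G6pdx* and lay the other way. Whether reads were given to the wrong gene was not tested.

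For *Prps1* the partner was *Prps1l3*, with 18.5% of stretches shared. *Prps1l3* was counted at 57.0, 47.7 and 52.7 CPM in the scrambled libraries and at 61.9, 62.1 and 51.2 CPM in the *Pgam* libraries. Those groups overlapped (log2 fold change 0.15, SE 0.11, edgeR adjusted p = 0.339), and the summed counts of the pair still passed the test at 0.34 (SE 0.099, edgeR adjusted p = 0.0428). *Pgls* shares 19.5% of its stretches with *Fam129c*, which overlaps it on the same strand. *Fam129c* fell from 6.91, 6.90 and 8.10 CPM to 2.73, 2.75 and 2.84 CPM (log2 fold change -1.39, SE 0.20, edgeR adjusted p = 0.00315). Summed with it, *Pgls* changed sign, to -0.02 (SE 0.076, edgeR adjusted p = 0.876), and was as flat as before. *Rpe* shares 16.4% with *Kansl1l* on the opposite strand, which fell by 0.88 on the log2 scale (SE 0.24, edgeR adjusted p = 0.0334). The call of *Kansl1l* was lost without scrambled replicates 1 or 2 or *Pgam* replicates 1 or 2 (edgeR adjusted p up to 0.123). A replicate block ended it too (edgeR adjusted p = 0.0663). The sum of *Rpe* and *Kansl1l* had a log2 fold change of 0.17 (SE 0.096, edgeR adjusted p = 0.237). *Taldo1* shares 14.0%, nearly all with the pseudogene *Gm17823*, to which 21 counts were given over all 6 libraries, and its result was the same with those added (0.42, edgeR adjusted p = 0.0139). *Rpia*, *Pgd*, *Prps2* and *Tkt* share 6.41%, 1.83%, 0.392% and 0.229%, and nothing was summed for them. Of the called enzymes that were summed with a partner, *Prps1* and *Taldo1* kept the call and *G6pdx* lost it.

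**Figure D4:**
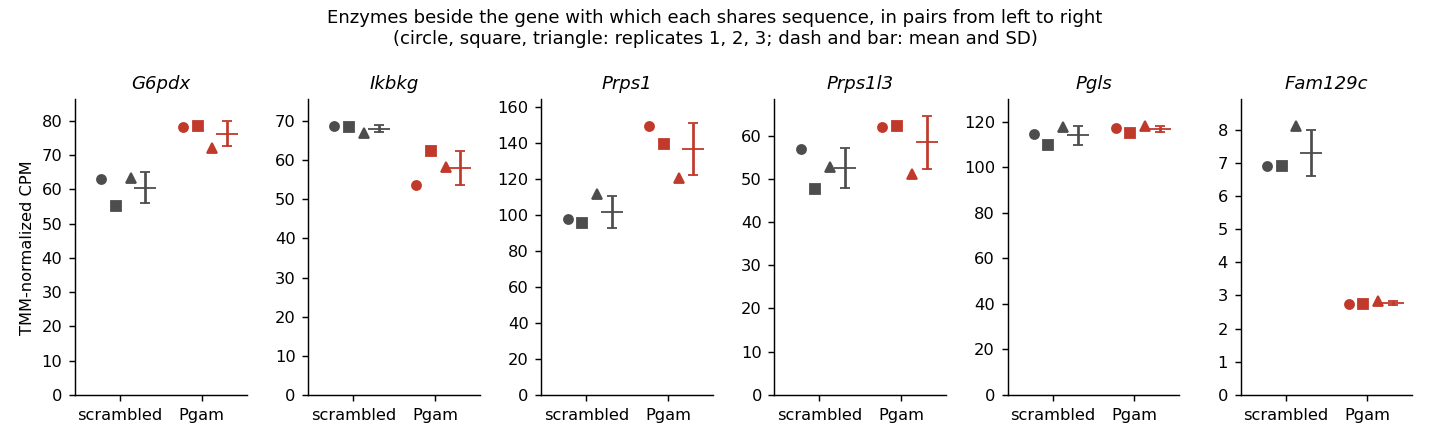
TMM-normalized CPM (vertical axes, from 0) of *G6pdx*, *Prps1* and *Pgls*, each with the gene it shares sequence with to its right, in the libraries labelled scrambled ASO (grey) and *Pgam* ASO (red), with circle, square and triangle for replicates 1, 2 and 3 and the mean ± SD. *Ikbkg* and *Fam129c* are lower in the *Pgam* libraries, while *G6pdx* is higher and *Pgls* overlaps.

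The libraries of one label differed among themselves in a similar order in most of the enzymes. Scrambled replicate 2 was the lowest of its group in 9 of 9 enzymes and scrambled replicate 3 the highest in 8 of 9. Among the *Pgam* libraries, replicate 3 was the lowest in 8 of 9 enzymes and replicate 1 the highest in 5 of 9. The share of all tested genes with the same lowest or highest library was not counted, so these counts have no background. Summed over the 9 enzymes, the libraries were ordered from scrambled replicate 2 at 1065 CPM through scrambled replicates 1 and 3 at 1174 and 1267 CPM to *Pgam* replicates 3, 2 and 1 at 1404, 1489 and 1530 CPM. *Foxp3*, the lineage factor of Tregs, was at 281, 370 and 222 CPM in the scrambled libraries and at 89.5, 109 and 131 CPM in the *Pgam* libraries, which is the exact reverse order. It fell by 1.41 on the log2 scale (SE 0.20, edgeR adjusted p = 0.00567). An order this exact was not rare, as 5.76% of tested genes followed the order of the enzymes and 5.19% the reverse. Whether the enzymes and *Foxp3* have a common source of this order was not tested.

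Pairs of enzymes were compared by the root mean square distance of their log2 CPM, each centred on its own mean, over the 6 libraries. *Tkt* and *Taldo1*, which act together, were the closest pair at 0.0429, and *Pgls* and *Prps2*, the flattest enzymes, came next at 0.0438. *Pgls* and *Rpia* were the farthest apart at 0.272, and the paralogs *Prps1* and *Prps2* lay at 0.201. Over all tested genes outside the pathway, the profile nearest to *Tkt* was that of *Rbbp7*, at 0.0101. The nearest were *Ywhab* for *G6pdx* (0.0152), *Wipf1* for *Pgls* (0.0126), *Slc35c2* for *Pgd* (0.0174), *Snrpb* for *Rpia* (0.0188), *Capza2* for *Rpe* (0.0251), *Nudt3* for *Taldo1* (0.0177), *Mrpl11* for *Prps1* (0.0326) and *Trp53* for *Prps2* (0.0103). Next after these came *Slc25a4* for *Tkt* (0.0241), *Hnrnpa2b1* for *G6pdx* (0.0216), *Poldip3* for *Pgls* (0.0127), *Mrpl40* for *Pgd* (0.0210), *Fbl* for *Rpia* (0.0231), *Ssx2ip* for *Rpe* (0.0377), *Kmt5a* for *Taldo1* (0.0235), *Ramp3* for *Prps1* (0.0347) and *Khdrbs1* for *Prps2* (0.0159).

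Because most of the enzymes were higher together, their promoters were searched for short motifs on both strands, from 250 bases before to 50 bases after each RefSeq start site (GRCm38.p6), and all 9 genes had an entry. TGANNNNGC is a looser form of the core of the antioxidant response element bound by NRF2. It occurred in 4 of 9 genes and in 45.0% of all 27025 genes with a promoter entry (41.3% of 32851 promoters). The matches upstream of a start site are shown, since these enzymes were called, with 10 bases on each side, in the direction of the gene, with the match in capitals.
Taldo1: tgaggcttacTGAGCGCGCgtctcagtag
Tkt: cggcctggggTGATTCGGCgccccgcccc
G6pdx: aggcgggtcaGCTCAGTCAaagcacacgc
They lie at chr7:141391929-141391957 (plus strand, first matching base at position -221 from the start site), chr14:30549084-30549112 (plus strand, position -37) and chrX:74428919-74428947 (minus strand, position -57, with the motif on the opposite strand of the gene). By the GENCODE M21 coordinates, the *Tkt* and *G6pdx* matches lie inside the genes, which span 30548359 to 30574720 and 74409483 to 74429194. Their positions are thus counted from RefSeq start sites within the annotated genes. In *Pgd* the only match, at position 4, was downstream of a start site. TGATGNAA, the core of the element bound by ATF4 with C/EBP factors, was found in 1 of 9 genes, *Prps1*, and in 4.51% of all genes (3.97% of promoters).
Prps1: gctatctttgTGATGTAAaaagtgcttt
This stretch lies at chrX:140456423-140456450 (plus strand, position -170). CCAAT was found in 4 of 9 genes (*Pgd*, *Rpe*, *Taldo1* and *Prps1*) and in 41.1% of all genes (37.4% of promoters). CACGTG, the E-box bound by MYC with MAX, was found in 0 of 9 genes and in 8.09% of all genes (7.15% of promoters), and TCACNCCAC, a sterol regulatory element, in 0 of 9 and 1.44% (1.24% of promoters). A match describes the letters of the window, not a bound site, and the lack of one says nothing about the factor. Of the factors named, the list of regulators holds *Atf4*, *Nfe2l2* and *Myc*. *Atf4* rose, from 161, 142 and 173 CPM to 229, 218 and 184 CPM (log2 fold change 0.41, SE 0.11, edgeR adjusted p = 0.0315). That call was lost without scrambled replicates 1 or 2 or *Pgam* replicates 1 or 2, at an edgeR adjusted p of up to 0.132. *Nfe2l2*, which encodes NRF2, and *Myc* were not called (log2 fold changes -0.10 and -0.13, edgeR adjusted p = 0.605 and 0.406).

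Genes around the pathway were described by lists set by role. In all, edgeR called 8 of the 51 tested genes of these lists (15.7%, against 17.2% of all tested genes), 6 higher (11.8%, against 8.03%) and 2 lower (3.92%, against 9.15%). Without single libraries this count was 1 (scrambled replicate 1), 4 (scrambled replicate 2), 14 (scrambled replicate 3), 2 (*Pgam* replicate 1), 0 (*Pgam* replicate 2, where 14 had an unadjusted p under 0.05) and 12 (*Pgam* replicate 3). On all 6 libraries DESeq2, fitted without the filter on low counts, called 13 and limma-voom 8. With a replicate block edgeR called 5, without *Atf4*, *Qprt* and *Me1*. Of 13 paralogs and side enzymes, 9 were tested, 1 rose and 0 fell, with a median log2 fold change of 0.14. The one called was *Tigar*, a phosphatase known to divert glucose 6-phosphate into the pathway, at 20.7, 15.6 and 20.5 CPM against 38.3, 28.6 and 24.6 CPM. Its groups did not overlap (log2 fold change 0.69, SE 0.18, edgeR adjusted p = 0.0277), and the call was lost without scrambled replicates 1 or 2 or *Pgam* replicates 1 or 2 (edgeR adjusted p up to 0.0935). *H6pd*, the dehydrogenase of the endoplasmic reticulum that runs the same first step, was not called (log2 fold change -0.15, edgeR adjusted p = 0.363). The transketolase-like genes *Tktl1* and *Tktl2* had too few counts to be tested, and *G6pd2* and *Tktl2* were listed at 0 in every library.

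Of 8 genes whose products use PRPP, 0 rose and 1 fell, with a median of 0.20. *Qprt*, of NAD synthesis from quinolinate, fell from 17.5, 16.9 and 10.8 CPM to 6.64, 7.62 and 10.8 CPM (log2 fold change -0.85, SE 0.23, edgeR adjusted p = 0.0333). Scrambled replicate 3 and *Pgam* replicate 3 were nearly equal, and the call was lost without scrambled replicates 1 or 2 or *Pgam* replicates 1 or 2 (edgeR adjusted p up to 0.137). *Ppat*, the first step of purine synthesis, had groups that did not overlap but did not pass the test, at 107, 82.2 and 112 CPM against 139, 135 and 118 CPM (log2 fold change 0.38, edgeR adjusted p = 0.0552). The salvage genes *Hprt* and *Nampt* were close to the threshold as well (log2 fold changes 0.28 and 0.30, edgeR adjusted p = 0.0600 and 0.0631).

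Other sources of NADPH numbered 12 genes, of which 10 were tested, 2 rose and 0 fell, with a median of 0.20. *Mthfd1*, the cytosolic folate enzyme, was at 113, 91.8 and 116 CPM in the scrambled libraries and at 187, 165 and 135 CPM in the *Pgam* libraries (log2 fold change 0.60, SE 0.13, edgeR adjusted p = 0.0175). No library crossed, although the call was lost without scrambled replicate 1, *Pgam* replicate 1 or *Pgam* replicate 2 (edgeR adjusted p up to 0.0884). *Me1*, the cytosolic malic enzyme, was called at a very low level, 5, 10 and 4 counts against 23, 10 and 27 counts (log2 fold change 1.75, SE 0.52, edgeR adjusted p = 0.0436), and its call was lost without any one of the 6 libraries (edgeR adjusted p from 0.0531 to 0.141). *Idh1* was not called (log2 fold change 0.47, edgeR adjusted p = 0.124).

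Of the 9 tested genes that spend NADPH, 2 rose and 1 fell, with a median of 0.25. *Fasn*, fatty acid synthase, was at 536, 415 and 516 CPM in the scrambled libraries and at 841, 741 and 678 CPM in the *Pgam* libraries (log2 fold change 0.62, SE 0.12, edgeR adjusted p = 0.00984). Its groups were well apart, and the call was lost only without *Pgam* replicate 2 (edgeR adjusted p = 0.0574). *Txnrd1*, thioredoxin reductase, was at 149, 122 and 167 CPM against 252, 209 and 190 CPM (log2 fold change 0.57, SE 0.13, edgeR adjusted p = 0.0218). *Ncf1*, a subunit of the phagocyte NADPH oxidase, fell by 0.48 on the log2 scale (SE 0.12, edgeR adjusted p = 0.0250). The calls of *Txnrd1* and *Ncf1* were each lost without scrambled replicate 1, *Pgam* replicate 1 or *Pgam* replicate 2, at edgeR adjusted p-values of up to 0.0873 and 0.110.

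Of the 8 genes of glucose entry and shared glycolysis, 7 were tested and edgeR called 0, with a median of 0.0011. *Slc2a3*, a glucose transporter, was at 489, 495 and 551 CPM in the scrambled libraries and at 126, 243 and 400 CPM in the *Pgam* libraries. Its *Pgam* libraries were all lower but widely spread, and the difference did not pass the test (log2 fold change -0.996, SE 0.40, edgeR adjusted p = 0.141). *Hk2*, a hexokinase, was at 198, 156 and 237 CPM against 277, 268 and 252 CPM, just outside the threshold (log2 fold change 0.43, SE 0.13, edgeR adjusted p = 0.0507). *Gpi1*, whose enzyme takes glucose 6-phosphate onward into glycolysis, overlapped between the groups (log2 fold change -0.16, SE 0.13, edgeR adjusted p = 0.436). *Gapdh* varied from 44.4 to 563 CPM within the scrambled libraries and was not called. Its 95% interval was wide (log2 fold change -0.04, -2.36 to 2.28, edgeR adjusted p = 0.982). Of 8 regulators, 1 rose, *Atf4*, and 0 fell, with a median of 0.15.

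**Figure D5:**
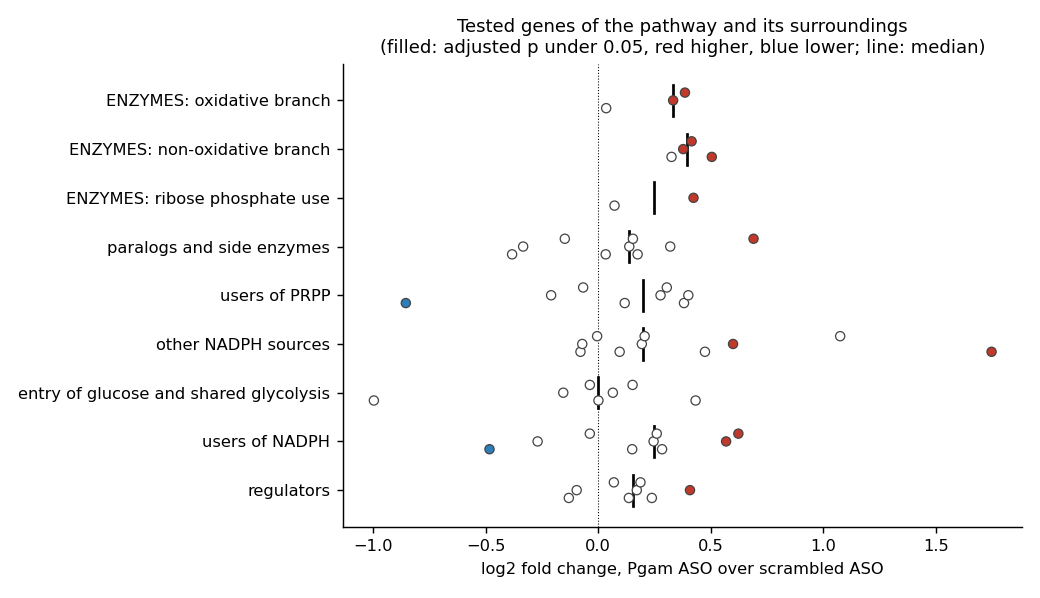
Log2 fold change, *Pgam* ASO over scrambled ASO, of every tested gene (points) of the pathway enzymes by branch and of the lists around the pathway, with filled points for an edgeR adjusted p under 0.05 (red higher, blue lower) and a line at the median of each list. The medians of the oxidative and non-oxidative enzymes, 0.33 and 0.40, lie to the right of those of the 6 surrounding lists, which run from 0.0011 to 0.25, while that of ribose phosphate use, 0.25, is level with the users of NADPH.

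Markers were checked because the cells were not sorted. The 8 CD4 T cell markers were abundant, led by *Cd4* at 774, 802 and 731 CPM in the scrambled libraries and 649, 650 and 695 CPM in the *Pgam* libraries. Their sum was 3128, 3360 and 2924 CPM against 2514, 2543 and 2667 CPM, and edgeR called 3 of 8 lower (*Cd5*, *Cd28* and *Trac*), beside 9.15% of all tested genes. The call of *Cd28* held in all 6 fits with a library left out, and those of *Cd5* and *Trac* were lost without scrambled replicate 1 or *Pgam* replicate 2, and for *Trac* also without scrambled replicate 2 or *Pgam* replicate 1 (edgeR adjusted p up to 0.106 and 0.153). With a replicate block the call of *Trac* was lost as well (edgeR adjusted p = 0.100). Of 5 Treg markers, *Il2ra* rose, *Foxp3* and *Ikzf2* fell, and the sum, mostly *Il2ra*, was 3024, 2879 and 3325 CPM against 3716, 3744 and 3372 CPM. *Il2ra* lost its call without scrambled replicate 1, *Pgam* replicate 1 or *Pgam* replicate 2 (edgeR adjusted p up to 0.0967) and *Ikzf2* without scrambled replicates 1 or 2 or *Pgam* replicates 1 or 2 (edgeR adjusted p up to 0.139). A replicate block also ended the call of *Ikzf2* (edgeR adjusted p = 0.0745).

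Markers of other cells were low. The 5 B cell markers summed to 9.27, 11.6 and 6.62 CPM against 9.74, 8.90 and 7.86 CPM, most of it *Cd79a* and none called. Myeloid markers, led by *Cd68*, summed to 10.6, 9.86 and 8.66 CPM against 9.61, 8.07 and 9.39 CPM, with 0 of 5 tested called. Dendritic cell markers came to 6.74, 6.63 and 7.48 CPM against 6.33, 4.997 and 3.84 CPM, most of it *Zbtb46*, with *Siglech* at 0 throughout. Those of NK cells came to 52.5, 32.1 and 54.9 CPM against 28.2, 26.9 and 24.1 CPM, nearly all from *Eomes*, which T cells also express, with *Klrb1c* at 0 and *Ncr1* at 0 to 2 counts. *Eomes* fell (log2 fold change -0.82, SE 0.19, edgeR adjusted p = 0.0214), a call lost without scrambled replicate 1, *Pgam* replicate 1 or *Pgam* replicate 2 (edgeR adjusted p up to 0.0893). Mast cell and basophil markers, led by *Cpa3*, were at 1.07, 1.89 and 1.36 CPM against 4.09, 3.97 and 2.95 CPM, and erythroid markers at 1.35, 1.08 and 0.928 CPM against 0.930, 1.15 and 1.77 CPM, with none called. *Cd8a* and *Cd8b1* summed to 11.2, 13.5 and 10.8 CPM against 14.6, 10.9 and 15.7 CPM, and *Cd8a* rose (log2 fold change 1.12, SE 0.29, edgeR adjusted p = 0.0286), a call lost without scrambled replicate 1 or *Pgam* replicate 1 (edgeR adjusted p up to 0.100) and with a replicate block. *Cd8b1*, the more abundant of the pair, overlapped between the groups with the opposite sign (log2 fold change -0.20, SE 0.18, edgeR adjusted p = 0.454). The part of any of these cells in the enzyme results was not tested.

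Because *G6pdx*, *Prps1* and *Prps2* are on chromosome X, genes that differ between the sexes were looked up. *Xist*, which is transcribed from the inactive X of female cells, was at 45.9, 56.7 and 45.3 CPM in the scrambled libraries and at 76.9, 87.4 and 105 CPM in the *Pgam* libraries. It was higher in each *Pgam* library (log2 fold change 0.86, SE 0.13, edgeR adjusted p = 0.00391), and the Y-linked *Kdm5d* was lower in each, at 61.1, 82.6 and 61.4 CPM against 42.6, 48.0 and 49.9 CPM (log2 fold change -0.55, SE 0.13, edgeR adjusted p = 0.0223). The call of *Kdm5d* was lost without *Pgam* replicate 1 or 2 (edgeR adjusted p up to 0.0937). The Y-linked *Ddx3y*, *Eif2s3y* and *Uty* were also lower in each *Pgam* library without being called (log2 fold changes -0.27, -0.12 and -0.45, edgeR adjusted p = 0.0803, 0.328 and 0.0592). All 6 libraries thus held RNA of both *Xist* and Y-linked genes. Whether the balance of the sexes differed between the groups was not tested. Of 458 tested genes on chromosome X, 6.99% were called higher and 8.52% lower, with a median log2 fold change of -0.01. Any part of the sex of the mice in the enzyme results was not tested either.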

How the data were processed

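Estimated counts for Ensembl genes in 6 libraries were deposited by the authors, who made them with Kallisto per the submitters' processing notes, which also name GRCm38. All values are whole numbers, and the Kallisto version and annotation are not given in the sources used here. Of 56748 listed genes, 4675 (1.42% of counts) are not in GENCODE M21, the source of symbols and coordinates. The software was R 4.3.3 and edgeR 4.0.16 (filterByExpr defaults, TMM, robust quasi-likelihood test, two-sided). TMM factors ran from 0.972 to 1.03. Alternatives were DESeq2 1.42.0, limma-voom (limma 3.58.1), library size alone, RLE factors, genes of ribosomal proteins and mitochondria dropped, no filter, at least 10 counts in every library, a replicate block, each library left out, a threshold of 0.01, counts summed with genes sharing at least 10% of 31-base stretches, and the longest transcript as length. No pair of libraries was alike within sampling noise. The genes named were *Pgam1*, *Pgam2*, the 9 enzymes, the role and marker lists, and the 2 nearest profiles of each enzyme (log2 CPM, prior count 2). Of the genes planned for the list of NADPH users, 1 is not reported here, and the counts of the lists leave it out. The enzymes and lists were chosen with earlier results of these data known. The overlapping genes and *Gm17823*, the sex-linked genes and the comparison of library order with *Foxp3* were chosen after values were seen. Coding sequences are from GENCODE M21 and promoters from RefSeq.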

Additional observations from a re-analysis of the deposited data

How the results depend on the processing

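DESeq2, limma-voom, library size alone, RLE factors, ribosomal protein and mitochondrial genes dropped and a minimum of 10 counts each called 6 enzymes. All 9 enzymes kept their direction, except *Pgls* summed with *Fam129c* (-0.020). Summing with partners left 5 enzymes called (*Rpia*, *Pgd* and *Tkt* had no partner to sum), with *G6pdx* at 0.063 and no longer past the threshold. No filter called 7 enzymes, with *Rpe* at 0.34, and put *Pgam2* (-0.83) past the threshold. A threshold of 0.01 left 453 genes, 0 enzymes and 1 list gene (*Fasn*). DESeq2 called 13 and no filter 15 list genes, against 8. The DESeq2 fit was on 28512 genes, as with no filter, in place of 14936, so it changed both the tool and the genes. Libraries of equal replicate number did not deviate alike from their group means (r across genes of 0.05, -0.03 and -0.24). Scrambled replicate 2 deviated most like *Pgam* replicate 3 (0.28). Deviations within groups of 3 cannot tell whether equal numbers share a source, which is not given. With a replicate block, edgeR called 1235 genes, 5 list genes and 1 enzyme (*Taldo1*), with *G6pdx* at 0.33, *Pgd* 0.38, *Rpia* 0.51, *Tkt* 0.38 and *Prps1* 0.42, all short of the threshold. With 1 library left out, calls ran from 391 to 3484 genes, 0 to 7 enzymes and 0 to 14 list genes. The log2 fold changes ran from 0.27 to 0.38 for *G6pdx*, 0.32 to 0.44 for *Pgd*, 0.39 to 0.60 for *Rpia*, 0.23 to 0.40 for *Rpe*, 0.29 to 0.47 for *Tkt*, 0.36 to 0.47 for *Taldo1*, 0.36 to 0.51 for *Prps1* and -1.11 to -0.56 for *Pgam2*. The ratio for *Prps1* plus *Prps2* ran from 1.17 to 1.25. With the longest transcript, scrambled levels were 142 (*Tkt*), 42.4 (*Pgls*), 35.5 (*Pgd*), 22.8 (*G6pdx*) and 12.7 (*Rpia*) CPM per kb, from the longer length. The cause of the other changes was not tested. The enzymes had 725 to 9826 counts per enzyme and library, whereas *Pgam2* and *Me1* had few counts. The effect of depth was not tested.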
